A study of Mus musculus with 18 samples.

Results

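The Indian hedgehog pathway of the uterus was followed through 9 genes taken by symbol from a table of 22238 gene symbols. The genes are the ligand Ihh, the receptors Ptch1 and Smo, the transcription factors Gli1, Gli2 and Gli3, the ligand-binding inhibitor Hhip, and the stromal transcription factors Nr2f2 and Hand2. All 9 were in the table and all 9 passed the filter on low counts, which left 15494 genes for testing. Hhip was the exception in level, with 13 of 18 libraries and every library of 4 groups at or above the filter level of 0.47 CPM (counts scaled to library size), so that it passed through the groups in which it was higher.

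In the mouse uterus the epithelium secretes Indian hedgehog when progesterone acts through its receptor. The ligand reaches the stroma beneath, binds the receptor Ptch1 and so frees the membrane protein Smo from inhibition by Ptch1. Smo signals at the primary cilium and turns the Gli proteins into activators, and the cell then transcribes Ptch1, Gli1 and Hhip, which makes these transcripts the usual readouts of the pathway. The stromal nuclear receptor Nr2f2 lies downstream of the hedgehog signal, and Hand2, a stromal factor that depends on the progesterone receptor, restrains growth factors that drive epithelial division.

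Total RNA of whole uterus homogenate was sequenced from ovariectomized adult CD-1 mice, an outbred stock, in 6 groups of 3 libraries each. Mice of the arm labelled DOX received doxorubicin, an anthracycline that poisons topoisomerase, and mice of the arm labelled PBS received phosphate-buffered saline, the vehicle. Within each arm the groups were P4 (progesterone), E2 (estradiol) and OIL (labelled as oil, with no hormone named), giving DOX P4, PBS P4, DOX E2, PBS E2, DOX OIL and PBS OIL. Removal of the ovaries, shared by all groups, takes away the main source of both hormones. Doses and times are not stated, nor whether the 3 samples of a group came from separate animals, so p-values measure only the spread between these samples. The study asked how doxorubicin alters the response of the uterus to estrogen.

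The libraries held 18042357 to 39783785 counts, the highest in PBS E2 replicate 1. Markers of every cell class looked for were present, with 7 of 7 epithelial, 6 of 6 stromal and 6 of 6 smooth muscle markers in the table and none at 0 in any group. Adipocyte markers were also present, 8 of 8, at a summed level that ran between 1.55 CPM in a DOX E2 library and 4156 CPM in PBS E2 replicate 1.

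The members lie on build GRCm38 of the mouse genome, here with the GENCODE M21 annotation, and all are protein-coding. Ihh is on the minus strand of chromosome 1 from 74945315 to 74951672. Ptch1 is on the minus strand of chromosome 13 from 63508328 to 63573598, and Gli3 is on the plus strand of the same chromosome from 15463235 to 15730026. Smo is on chromosome 6 from 29735503 to 29761365, Gli1 on chromosome 10 from 127329882 to 127341974 and Gli2 on chromosome 1 from 118834132 to 119053619. Hhip is on chromosome 8 from 79965851 to 80058006, Hand2 on the same chromosome from 57320983 to 57324633, and Nr2f2 on chromosome 7 from 70351944 to 70366735. Exons of Hand2 share 461 bases, or 19.6% of their length, with the antisense gene Hand2os1. Exons of Nr2f2 share 643 bases, or 7.46%, with B130024G19Rik on the other strand. The strand setting of the counting is not given in the sources used here, so reads from these pairs cannot be told apart.

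Promoters of the ligand, of its receptor and target Ptch1 and of the stromal factor Hand2 are given, since these members of each compartment moved with P4. Each is the 250 bases before an annotated RefSeq start (GRCm38.p6), printed 5′ to 3′ on the strand of the gene, with GC boxes (GGGCGG on either strand) and CCAAT boxes (CCAAT on either strand) in capitals. The windows are chr1:74951673-74951922 on the minus strand for Ihh, chr13:63565736-63565985 on the minus strand for Ptch1, at a start that lies inside the annotated span of the gene, and chr8:57320733-57320982 on the plus strand for Hand2.
Ihh: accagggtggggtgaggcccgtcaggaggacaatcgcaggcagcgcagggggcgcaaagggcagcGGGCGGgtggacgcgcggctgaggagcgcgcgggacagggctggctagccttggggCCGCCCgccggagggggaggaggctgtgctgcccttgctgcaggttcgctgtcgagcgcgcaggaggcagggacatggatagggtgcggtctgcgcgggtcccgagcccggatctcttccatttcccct
Ptch1: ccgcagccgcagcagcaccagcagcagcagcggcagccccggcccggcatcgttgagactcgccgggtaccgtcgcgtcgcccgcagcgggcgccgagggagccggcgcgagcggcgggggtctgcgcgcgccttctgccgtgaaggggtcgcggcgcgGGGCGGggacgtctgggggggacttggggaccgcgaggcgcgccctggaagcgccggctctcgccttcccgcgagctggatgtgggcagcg
Hand2: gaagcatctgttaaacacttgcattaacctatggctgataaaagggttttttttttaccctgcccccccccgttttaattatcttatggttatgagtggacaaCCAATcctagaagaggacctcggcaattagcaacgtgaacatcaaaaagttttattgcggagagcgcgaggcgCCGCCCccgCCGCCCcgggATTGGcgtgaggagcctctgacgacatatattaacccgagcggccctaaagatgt
Windows of 8 of the 9 members were found in the RefSeq table. A GC box was present in 6 of these 8, against 32.7% of 32851 mouse promoters of the same length, and a CCAAT box in 2 of 8, against 33.8%. The Gli binding core GACCACCCA was present in 0 of 8 on either strand and in 0.225% of all promoters. The palindromic estrogen response element, in 0.0639% of promoters, and the progesterone response element, in 0.387%, were likewise absent from these windows on either strand, which says only that these letters are not in them.

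Per kilobase of exon, Gli1 stood highest of the members in the PBS OIL group at 50.7 ± 10.1 CPM per kilobase (SD, n = 3), with Smo at 29.9 ± 2.40. Hand2 at 22.4 ± 3.63, Nr2f2 at 21.7 ± 1.70 and Ptch1 at 13.6 ± 2.89 CPM per kilobase made up the middle. Gli2 at 7.28 ± 0.671, Ihh at 4.61 ± 1.45 and Gli3 at 3.22 ± 0.792 CPM per kilobase were lower, and Hhip was at 0.0288 ± 0.0151. The ligand was thus a low transcript of the homogenate in the absence of hormone, and the Gli factor that is itself a target was the most abundant per length. These lengths come from GENCODE M21, and the annotation behind the deposited counts is not given in the sources used here.

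**Figure D1:**
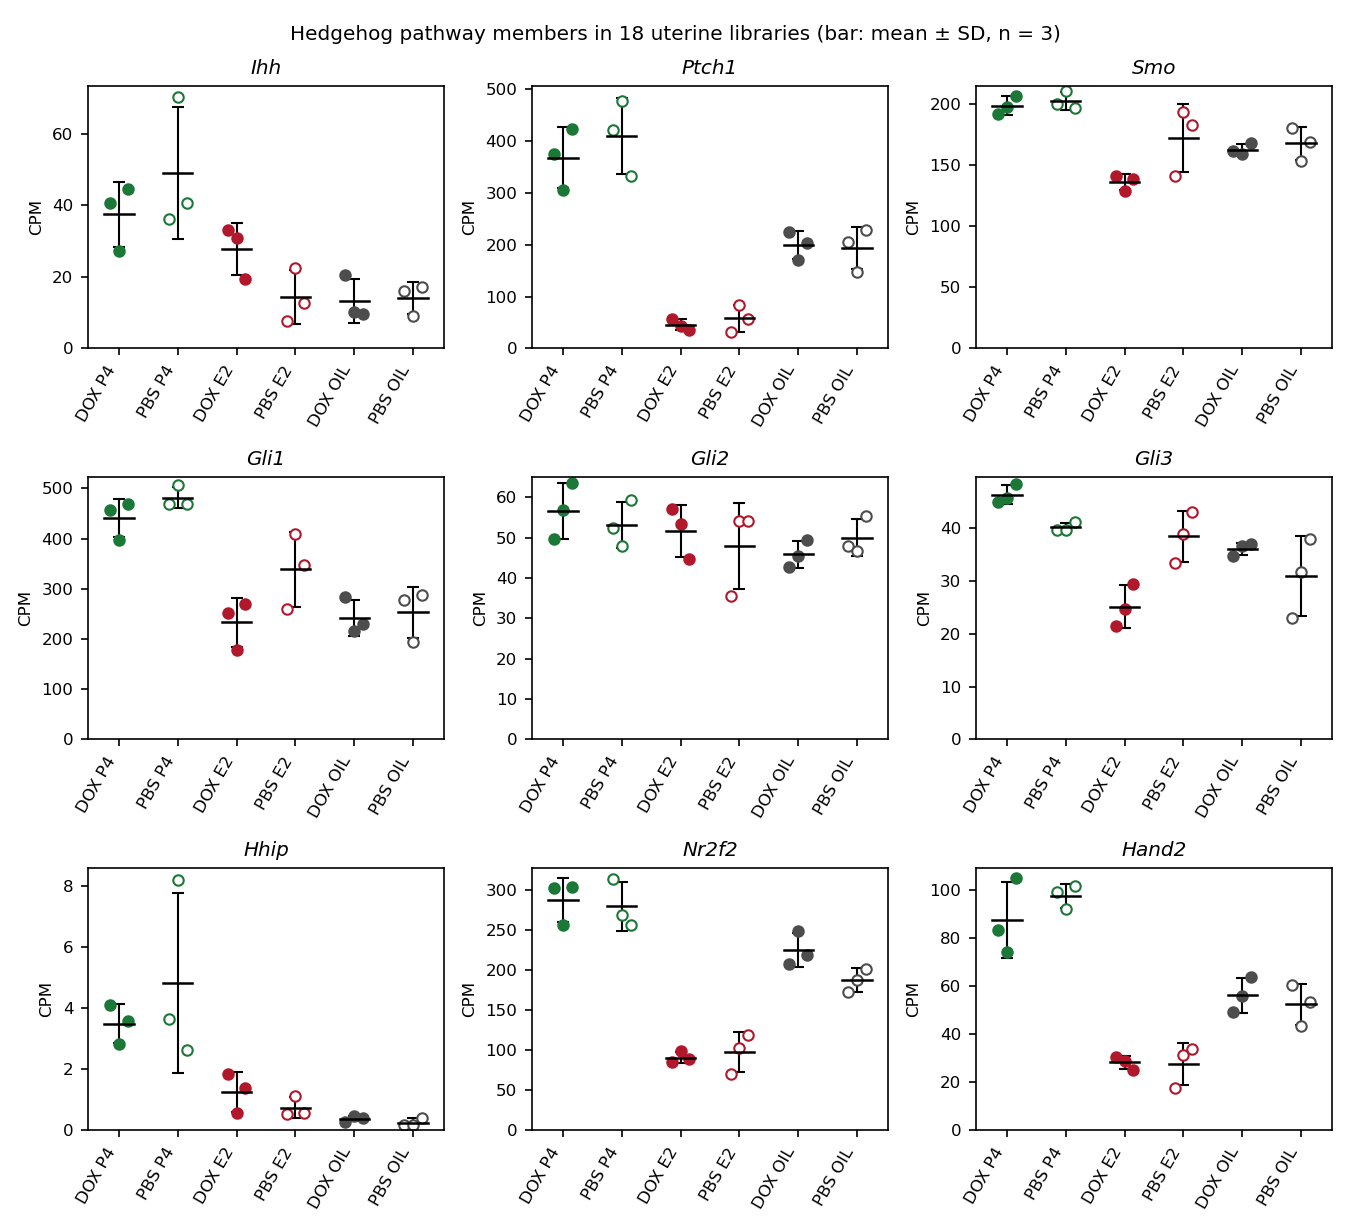
Normalized level of each of the 9 genes in every library, in CPM on a linear axis that starts at 0, with 1 panel per gene, groups along the horizontal axis, filled points for DOX, open points for PBS and bars for the group mean ± SD (n = 3). Ptch1 is highest in the 6 P4 libraries, between 305 and 476 CPM, and lowest in the 6 E2 libraries, between 32.4 and 84.3 CPM.

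The first question was how P4 moved the pathway against OIL in each arm. With P4, the ligand, the receptor Ptch1, Smo, Gli1, Hhip and Hand2 rose in both arms, and Nr2f2 rose in the PBS arm. A gene was called where the adjusted p of edgeR's quasi-likelihood test (Benjamini-Hochberg over all tested genes) was under 0.05, and a change is given as a log2 fold change ± SE. Of the members, 6 of 9 were called in the DOX arm, all higher, against 29.8% of all tested genes in either direction, 14.7% higher and 15.1% lower. The PBS arm had 7 of 9 called, all higher, against 31.8% of all tested genes called in either direction, 16.2% higher and 15.6% lower. Both counts include Hhip, which passed the filter through the groups in which it was higher and whose calls are therefore only described. The median log2 fold change of the members was 0.63 in the DOX arm and 0.89 in the PBS arm, where the medians of all tested genes were -0.02 and -0.01.

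Ihh, the epithelial ligand, stood at 40.7, 27.3 and 44.5 CPM in the DOX P4 libraries, against 20.5, 10.1 and 9.58 CPM in the DOX OIL libraries. It stood at 36.2, 70.2 and 40.6 CPM in the PBS P4 libraries, against 16.0, 9.01 and 17.2 CPM in the PBS OIL libraries. In both arms every P4 library was above every OIL library, and the highest value of all was PBS P4 replicate 2. The log2 fold change of Ihh was 1.48 ± 0.40 in the DOX arm (adjusted p = 0.0124) and 1.80 ± 0.41 in the PBS arm (adjusted p = 0.00399), a 2.79-fold and a 3.49-fold rise. Because the tissue was sequenced as a whole, more epithelial cells and more Ihh RNA per epithelial cell cannot be told apart, here or for any other member. The epithelial markers summed to 608 to 697 CPM in DOX P4 against 626 to 816 CPM in DOX OIL, and to 550 to 906 CPM in PBS P4 against 534 to 872 CPM in PBS OIL. These ranges overlap in both arms, and the part of the epithelial markers in the rise of Ihh was not tested.

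Ptch1, which binds the ligand and is induced by it, stood at 374, 305 and 422 CPM in DOX P4, against 224, 171 and 203 CPM in DOX OIL. It stood at 421, 476 and 331 CPM in PBS P4, against 204, 148 and 228 CPM in PBS OIL. The 6 P4 libraries lay above the 6 OIL libraries with no overlap. The rise was 0.88 ± 0.27 in the DOX arm (adjusted p = 0.0233) and 1.08 ± 0.27 in the PBS arm (adjusted p = 0.00781). Gli1, the Gli factor whose own transcription follows the signal, stood at 456, 397 and 468 CPM in DOX P4, against 283, 215 and 229 CPM in DOX OIL. It stood at 469, 506 and 469 CPM in PBS P4, against 278, 195 and 287 CPM in PBS OIL, again with no overlap. Gli1 rose by 0.86 ± 0.19 in the DOX arm (adjusted p = 0.00307) and by 0.93 ± 0.19 in the PBS arm (adjusted p = 0.00192), and it kept both calls when any 1 library was left out.

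Hhip, a membrane protein that binds hedgehog ligands and is also induced by them, had the largest fold change of the members and the lowest level. It passed the filter through the groups in which it was higher, so its calls and this rank are only described. It stood at 4.12, 2.82 and 3.58 CPM in DOX P4, against 0.290, 0.459 and 0.421 CPM in DOX OIL. It stood at 3.64, 8.2 and 2.65 CPM in PBS P4, against 0.178, 0.186 and 0.420 CPM in PBS OIL. The lowest P4 library was therefore above the highest OIL library by a wide margin, although the PBS OIL values rest on only 4, 4 and 9 counts. The log2 fold change was 3.16 ± 0.52 in the DOX arm (adjusted p = 0.000544) and 4.19 ± 0.55 in the PBS arm (adjusted p = 0.000107), with an interval of 3.02 to 5.36 in the PBS arm. Without PBS P4 replicate 2, the highest library, the PBS arm gave 3.57, and the range without any 1 library was 3.57 to 4.69.

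Smo, the signal-transducing membrane protein, moved little, with a range of 192 to 207 CPM in DOX P4 against 159 to 168 CPM in DOX OIL, and of 197 to 211 CPM in PBS P4 against 154 to 181 CPM in PBS OIL. Its log2 fold change was 0.29 ± 0.10 in the DOX arm (adjusted p = 0.0362) and 0.27 ± 0.10 in the PBS arm (adjusted p = 0.0429). Gli2, the main Gli activator in mammals, was not called with 0.31 ± 0.15 in the DOX arm and 0.09 ± 0.15 in the PBS arm. Gli3, which acts mostly as a repressor when no ligand is present, was not called either, at 0.36 ± 0.15 (adjusted p = 0.0802) in the DOX arm and 0.38 ± 0.15 (adjusted p = 0.0621) in the PBS arm. Gli3 was called higher with DESeq2 in the DOX arm (0.39, adjusted p = 0.0363) and in the PBS arm (0.40, adjusted p = 0.0304). It was also called in a fit of only the groups compared in the DOX arm (0.36, adjusted p = 0.00632), and in the PBS arm with DESeq2's size factors (0.40), limma voom (0.41) or without PBS OIL replicate 3 (0.56, adjusted p = 0.0119).

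Of the stromal factors, Hand2 stood at 83.7, 74.4 and 105 CPM in DOX P4, against 49.3, 56.1 and 63.8 CPM in DOX OIL. It stood at 99.3, 92.2 and 102 CPM in PBS P4, against 60.8, 43.7 and 53.4 CPM in PBS OIL, so the P4 and OIL libraries did not overlap. Hand2 rose by 0.63 ± 0.20 in the DOX arm (adjusted p = 0.0239) and by 0.89 ± 0.20 in the PBS arm (adjusted p = 0.00352). Nr2f2 stood at 303, 256 and 304 CPM in DOX P4, against 208, 249 and 219 CPM in DOX OIL, a difference of 0.35 ± 0.15 that was not called (adjusted p = 0.0887) but was with DESeq2 (0.39, adjusted p = 0.0398) and in a fit of only the groups compared (0.36, adjusted p = 0.0289). It stood at 314, 269 and 256 CPM in PBS P4, against 173, 188 and 202 CPM in PBS OIL, and rose by 0.58 ± 0.15 (adjusted p = 0.00924).

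The calls of the DOX arm rested on single libraries more than those of the PBS arm. Ihh was no longer called there without DOX OIL replicate 2 (1.31, adjusted p = 0.0543) or replicate 3 (1.29, adjusted p = 0.0533). Ptch1 was no longer called without DOX OIL replicate 2 (0.78) or 3 (0.90), or without DOX P4 replicate 1 (0.87) or 3 (0.77), with adjusted p between 0.0521 and 0.0868. Hand2 lost its call without DOX OIL replicate 1 (0.55) or 2 (0.63), or DOX P4 replicate 3 (0.49). The number of members called in that arm was 2 without DOX OIL replicate 2, and 3 without DOX OIL replicate 3 or DOX P4 replicate 3. These 3 fits called 3578 of 15656, 3741 of 15663 and 3057 of 15662 tested genes. Without DOX OIL replicate 2 the members were thus not called more often than genes in general. Smo lost its call without any 1 of the 6 libraries in the DOX arm (0.26 to 0.31). In the PBS arm it lost the call without PBS OIL replicate 2 (0.22) or 3 (0.28), or without PBS P4 replicate 1 (0.29), 2 (0.25) or 3 (0.29).

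Markers of other cell types moved with P4 as well. All 6 smooth muscle markers rose in the PBS arm and 5 of 6 in the DOX arm, where 16.2% and 14.7% of all tested genes were higher. They summed to 11426 to 20264 CPM in DOX P4 against 5012 to 10165 CPM in DOX OIL, and to 10594 to 13878 CPM in PBS P4 against 5203 to 6260.2 CPM in PBS OIL. Stromal markers rose in 4 of 6 cases in the DOX arm, Col1a1 by 2.04 ± 0.48, Col3a1 by 1.70 ± 0.35, Lum by 1.19 ± 0.34 and Pdgfra by 0.52 ± 0.16. The other 2 were not called. Of these, Dcn was lower in every DOX P4 library than in any DOX OIL library, at 2735 ± 412 CPM against 3674 ± 193 CPM. In the PBS arm Lum rose by 1.27 ± 0.35, Pdgfrb fell by 0.41 ± 0.15 and 4 were not called. The stromal sums were 6233 to 8329 CPM in DOX P4 against 5031 to 6042 CPM in DOX OIL, with no overlap, and 5338 to 6718 CPM in PBS P4 against 3502 to 6344 CPM in PBS OIL, with overlap. The part of smooth muscle and stromal markers in the result was not tested. Adipocyte markers summed to 14.9 to 273 CPM in DOX P4 against 136 to 557 CPM in DOX OIL, and to 19 to 234 CPM in PBS P4 against 539.9 to 2291 CPM in PBS OIL. With the mean level of the adipocyte markers as a covariate, 3 members were called in the PBS arm in place of 7. Of 15494 tested genes, 3013 were called there in place of 4930. Gli1 (0.85), Hhip (3.88) and Hand2 (0.60) were still called there. Ihh was at 1.06 (adjusted p = 0.0558), Ptch1 at 0.62 (adjusted p = 0.101), Nr2f2 at 0.53 (adjusted p = 0.0569) and Smo at 0.16 (adjusted p = 0.321). In the DOX arm the covariate left Ihh (1.16), Ptch1 (0.67), Gli1 (0.83), Hhip (3.04) and Hand2 (0.49) called and ended the call of Smo (0.24, adjusted p = 0.0775).

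**Figure D2:**
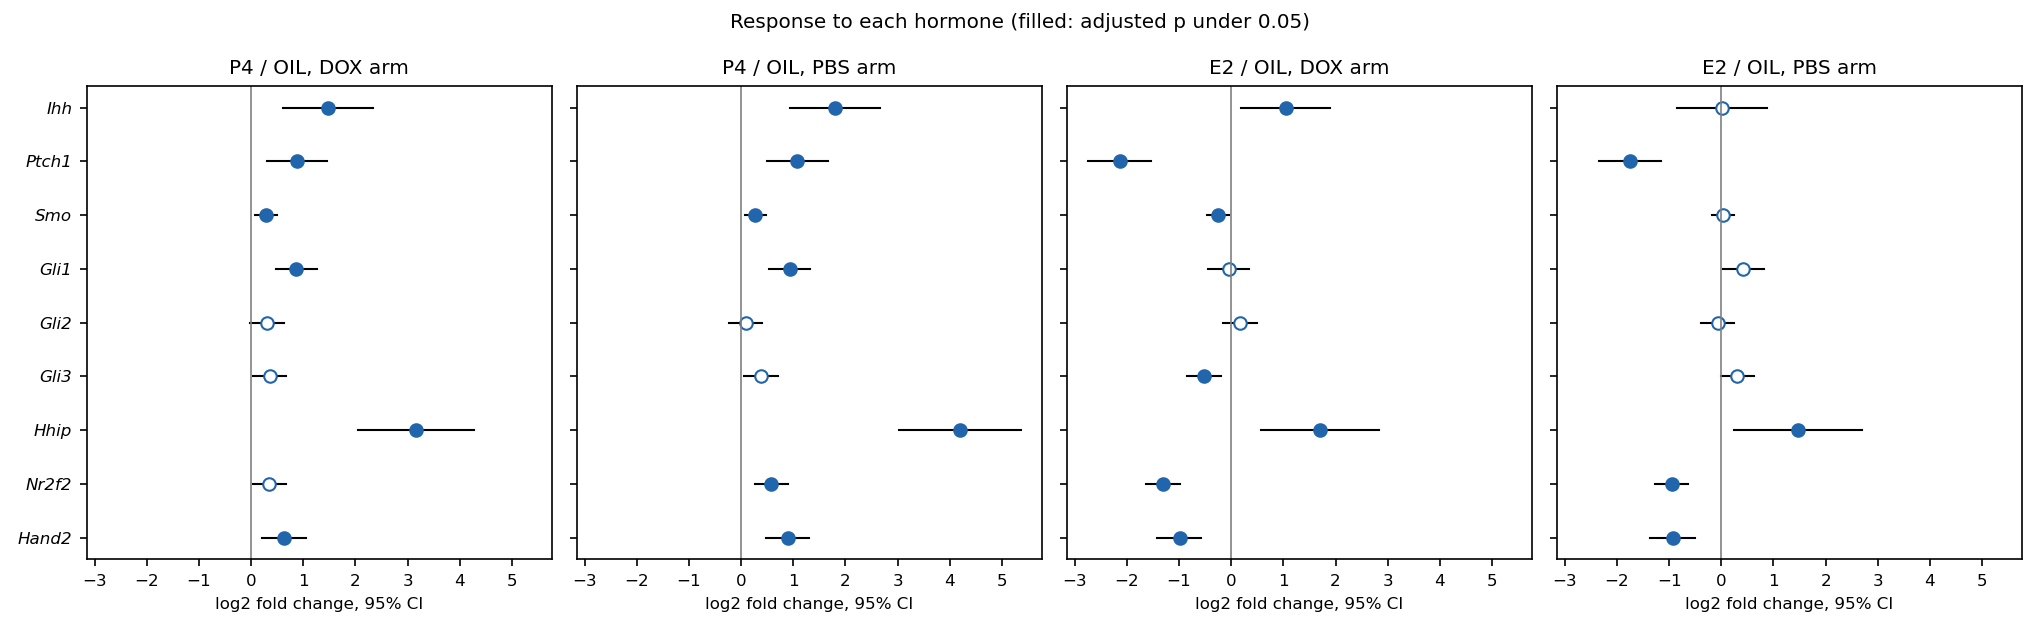
Log2 fold change of each of the 9 genes with P4 or E2 against OIL, in the DOX arm and the PBS arm, with bars for the 95% confidence interval of the edgeR fit and filled points for an adjusted p under 0.05. Ptch1, Nr2f2 and Hand2 lie to the left of 0 with E2 in both arms and to the right with P4, where the point of Nr2f2 is filled in the PBS arm only.

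The second question was how E2 moved the pathway against OIL, with the same OIL libraries as reference as in the P4 comparisons of each arm. With E2, Ptch1, Nr2f2 and Hand2 fell in both arms and Hhip rose in both, while Ihh rose in the DOX arm. Of the 9 members, 7 were called in the DOX arm, 2 higher and 5 lower, where 72.6% of all tested genes were called, 35.1% higher and 37.5% lower. The PBS arm had 4 of 9 called, 1 higher and 3 lower, where 61.4% of all tested genes were called, 29.6% higher and 31.9% lower. Both counts are near or under the share of all genes, so it is the individual values and not the number of calls that describe the members here. Hhip, which passed the filter through the groups in which it was higher, is among the higher calls of both arms. The median log2 fold change of the members was -0.26 in the DOX arm and 0.01 in the PBS arm, where those of all tested genes were -0.08 and -0.09.

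Ptch1 had the largest fall of the members in both arms. It stood at 56.9, 43.0 and 36.3 CPM in DOX E2, against 224, 171 and 203 CPM in DOX OIL. It stood at 32.4, 84.3 and 56.4 CPM in PBS E2, against 204, 148 and 228 CPM in PBS OIL. The highest E2 library was well under the lowest OIL library. Ptch1 fell by 2.14 ± 0.28 on the log2 scale in the DOX arm (adjusted p = 5e-06), or 4.40-fold lower, and by 1.75 ± 0.28 in the PBS arm (adjusted p = 5.78e-05), or 3.36-fold lower. Both calls held without any 1 library, with log2 fold changes of -2.35 to -2.00 in the DOX arm and -2.13 to -1.46 in the PBS arm.

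Gli1, another transcript that reads out the signal beside Ptch1 and Hhip, did not go with Ptch1. It stood at 252, 178 and 269 CPM in DOX E2, against 283, 215 and 229 CPM in DOX OIL, a difference of -0.05 ± 0.18 with an interval of -0.45 to 0.34. It stood at 259.5, 408 and 348 CPM in PBS E2, against 278, 195 and 287 CPM in PBS OIL, a difference of 0.42 ± 0.18 that was not called (adjusted p = 0.0595). The E2 and OIL libraries overlapped in both arms. Gli1 was called higher in the PBS arm without PBS E2 replicate 1 (0.58, adjusted p = 0.0140) or PBS OIL replicate 3 (0.52, adjusted p = 0.0445), with DESeq2's size factors (0.44, adjusted p = 0.0448) and with DESeq2 (0.44, adjusted p = 0.0297).

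Ihh differed between libraries of the same group by more than most members. It stood at 33.1, 30.8 and 19.5 CPM in DOX E2, against 20.5, 10.1 and 9.58 CPM in DOX OIL, and rose by 1.05 ± 0.40 (adjusted p = 0.0287). It stood at 7.66, 22.5 and 12.8 CPM in PBS E2, against 16.0, 9.01 and 17.2 CPM in PBS OIL, a difference of 0.01 ± 0.41 with an interval of -0.85 to 0.87. The DOX E2 and DOX OIL ranges overlapped by 1 library each. The call in the DOX arm was lost without DOX OIL replicate 2 (0.88) or 3 (0.86), or DOX E2 replicate 1 (0.89) or 2 (0.97), and with the adipocyte covariate (0.20, adjusted p = 0.662). Epithelial markers summed to 826 to 1190.4 CPM in DOX E2 against 626 to 816 CPM in DOX OIL, and 5 of 7 of them rose, Krt8 by 1.02 ± 0.22 and Cdh1 by 0.82 ± 0.25. Of all tested genes 35.1% were higher in that comparison. The part of the epithelial markers in the rise of Ihh was not tested.

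Nr2f2 stood at 84.8, 98.6 and 89.2 CPM in DOX E2, against 208, 249 and 219 CPM in DOX OIL, and fell by 1.31 ± 0.15 (adjusted p = 1.19e-06). It stood at 70.0, 103 and 119 CPM in PBS E2, against 173, 188 and 202 CPM in PBS OIL, and fell by 0.95 ± 0.15 (adjusted p = 5.65e-05). No E2 library reached the lowest OIL library. Hand2 stood at 30.7, 28.9 and 25.4 CPM in DOX E2, against 49.3, 56.1 and 63.8 CPM in DOX OIL, and fell by 0.99 ± 0.20 (adjusted p = 0.000332). It stood at 17.6, 31.6 and 33.9 CPM in PBS E2, against 60.8, 43.7 and 53.4 CPM in PBS OIL, and fell by 0.93 ± 0.20 (adjusted p = 0.000826). Both stromal factors kept their calls without any 1 library and with the adipocyte covariate.

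Hhip stood at 1.86, 0.567 and 1.40 CPM in DOX E2, against 0.290, 0.459 and 0.421 CPM in DOX OIL, and rose by 1.71 ± 0.53 (adjusted p = 0.00929). It stood at 0.529, 1.14 and 0.576 CPM in PBS E2, against 0.178, 0.186 and 0.420 CPM in PBS OIL, and rose by 1.47 ± 0.58 (adjusted p = 0.0380). These levels lie near the filter level and come from 11 to 36 counts in the E2 libraries. The call in the PBS arm was lost without PBS OIL replicate 1 (1.26) or 2 (1.28) or PBS E2 replicate 2 (1.07) and with limma voom (1.39, adjusted p = 0.114). That in the DOX arm was lost without DOX E2 replicate 1 (1.33, adjusted p = 0.0504) and with the adipocyte covariate (1.41, adjusted p = 0.0595).

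Smo stood at 129 to 141 CPM in DOX E2 against 159 to 168 CPM in DOX OIL and fell by 0.26 ± 0.10 (adjusted p = 0.0261), a call lost without DOX OIL replicate 3 (-0.23) or DOX E2 replicate 2 (-0.22). Its difference in the PBS arm was 0.04 ± 0.10. Gli3 stood at 21.4, 24.6 and 29.4 CPM in DOX E2, against 34.8, 36.6 and 36.9 CPM in DOX OIL, and fell by 0.52 ± 0.15 (adjusted p = 0.00535). It stood at 33.4, 38.8 and 43.1 CPM in PBS E2, against 22.9, 31.7 and 38.0 CPM in PBS OIL, a difference of 0.31 ± 0.15 that was not called (adjusted p = 0.0782). In the PBS arm Gli3 was called higher with DESeq2 (0.34, adjusted p = 0.0456) and without PBS OIL replicate 3 (0.49, adjusted p = 0.00942) or PBS E2 replicate 1 (0.41, adjusted p = 0.0410). Gli2 was not called in either arm, with 0.17 ± 0.15 in the DOX arm and -0.07 ± 0.15 in the PBS arm.

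Some stromal markers fell with E2 as well, where 37.5% of all tested genes fell in the DOX arm and 31.9% in the PBS arm. In the DOX arm 4 of 6 fell, among them Dcn by 1.43 ± 0.25 and Col3a1 by 1.71 ± 0.35, while Pdgfrb was at 0.33 ± 0.15 and not called, and the list summed to 1747 to 2862 CPM in DOX E2 against 5031 to 6042 CPM in DOX OIL. In the PBS arm 2 of 6 fell, which is near the share of all genes. These were Pdgfra by 0.92 ± 0.16 and Col3a1 by 1.27 ± 0.35, and 4 were not called, among them Lum at 0.32 ± 0.34. There the sums of 3594 to 5204 CPM in PBS E2 and 3502 to 6344 CPM in PBS OIL overlapped. Their part in the result was not tested.

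The unequal movement of Ptch1 and Gli1 can be given within each library as the ratio of their counts, a measure chosen after the values were seen and therefore only described. The ratio of Ptch1 to Gli1 was 0.226, 0.241 and 0.135 in DOX E2, against 0.791, 0.798 and 0.890 in DOX OIL. It was 0.125, 0.207 and 0.162 in PBS E2, against 0.735, 0.761 and 0.795 in PBS OIL. All 6 E2 libraries lay under 0.25 and all 12 other libraries above 0.70, since DOX P4 ran between 0.770 and 0.903 and PBS P4 between 0.706 and 0.941. The ratio of the stromal factors Hand2 to Nr2f2 ran between 0.226 and 0.398 over all 18 libraries, with no group apart from the rest. An exact permutation test of 3 libraries against 3 cannot give a p under 0.1.

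**Figure D3:**
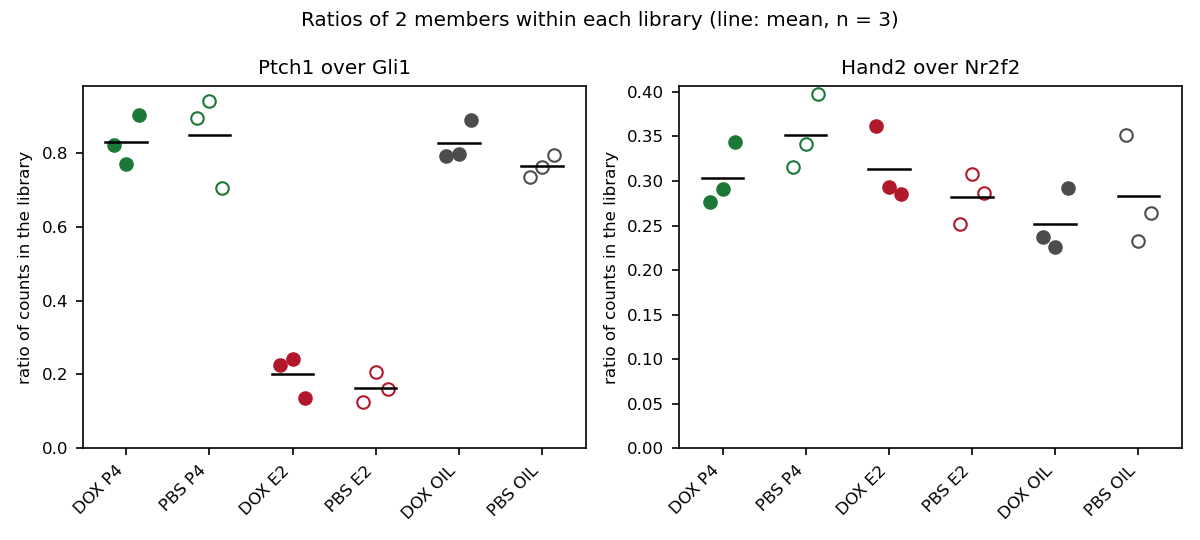
Ratio of the counts of Ptch1 to Gli1 and of Hand2 to Nr2f2 in every library, with groups along the horizontal axis, filled points for DOX, open points for PBS and a line at the group mean (n = 3). The 6 E2 libraries sit between 0.125 and 0.241 for Ptch1 over Gli1 and the other libraries between 0.706 and 0.941, while Hand2 over Nr2f2 stays between 0.226 and 0.398.

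The third question was what DOX did to the pathway against PBS under each hormone. Under E2, Smo, Gli1 and Gli3 were lower with DOX, and under P4 or OIL no member was called. Under E2, 3 of 9 members were called, all lower, against 41.0% of all tested genes called, 20.4% higher and 20.6% lower, so the members were not called more often than genes in general. Under P4 it was 0 of 9, against 0% of all tested genes. Under OIL it was 0 of 9, against 0.0129% of all tested genes. Of all tested genes 822 had an unadjusted p under 0.05 under P4 and 1253 under OIL, none of them a member. DESeq2 called 9 genes under P4 and 21 under OIL, limma voom called 0 in both, and neither called a member.

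Gli3 stood at 21.4, 24.6 and 29.4 CPM in DOX E2, against 33.4, 38.8 and 43.1 CPM in PBS E2. Every DOX E2 library was below every PBS E2 library, and the log2 fold change was -0.61 ± 0.15 (adjusted p = 0.00469). Gli1 stood at 252, 178 and 269 CPM in DOX E2, against 259.5, 408 and 348 CPM in PBS E2, with DOX E2 replicate 3 above PBS E2 replicate 1. Its log2 fold change was -0.54 ± 0.18 (adjusted p = 0.0290). Smo stood at 141, 129 and 139 CPM in DOX E2, against 141, 194 and 183 CPM in PBS E2, with 1 library of each group at the same level. Its log2 fold change was -0.34 ± 0.10 (adjusted p = 0.0118).

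The ligand and the receptor Ptch1 did not pass under E2. Ihh stood at 33.1, 30.8 and 19.5 CPM in DOX E2, against 7.66, 22.5 and 12.8 CPM in PBS E2, a difference of 0.97 ± 0.40 (adjusted p = 0.0647, interval 0.12 to 1.83). It was called higher without PBS E2 replicate 2 (1.46, adjusted p = 0.0174) or DOX E2 replicate 3 (1.17, adjusted p = 0.0454), with DESeq2 (0.96, adjusted p = 0.0366) and with limma voom (1.17, adjusted p = 0.0358). Ptch1 stood at 56.9, 43.0 and 36.3 CPM in DOX E2, against 32.4, 84.3 and 56.4 CPM in PBS E2, a difference of -0.34 ± 0.28 (adjusted p = 0.340). It was called lower without PBS E2 replicate 1 (-0.63, adjusted p = 0.0419) and was at 0.04 without PBS E2 replicate 2. Gli2, Hhip, Nr2f2 and Hand2 had differences of 0.11 ± 0.15, 0.80 ± 0.50, -0.09 ± 0.15 and 0.04 ± 0.20, with none called.

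The call of Gli3 held without any 1 library (-0.74 to -0.52). That of Gli1 was lost without PBS E2 replicate 2 (-0.38) or 3 (-0.52) or DOX E2 replicate 2 (-0.38), and that of Smo without PBS E2 replicate 2 (-0.25) or 3 (-0.30). A single member was called without PBS E2 replicate 3, and a single member in a fit of only the 2 groups compared, in which Gli1 was at -0.58 (adjusted p = 0.0719) and Smo at -0.38 (adjusted p = 0.0634).

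Cell type markers differed between DOX E2 and PBS E2 beside these members. Stromal markers summed to 1747 to 2862 CPM in DOX E2 against 3594 to 5204 CPM in PBS E2, where Dcn had a log2 fold change of -1.2 ± 0.25, Lum of -1.23 ± 0.35 and Pdgfra of 0.45 ± 0.16, all called. The other 3 of the 6 were not called. Epithelial markers summed to 826 to 1190.4 CPM in DOX E2 against 562 to 853 CPM in PBS E2, with Krt8 higher by 0.84 ± 0.22 and Cdh1 by 0.67 ± 0.25. The other 5 of the 7 were not called, where 20.4% of all tested genes were higher and 20.6% lower. The part of stromal and epithelial markers in the result was not tested. All 8 adipocyte markers fell, with sums of 1.55 to 154 CPM in DOX E2 against 197 to 4156 CPM in PBS E2. With the adipocyte covariate Smo (-0.50, adjusted p = 0.0151) and Ptch1 (-1.04, adjusted p = 0.0265) were called lower, and Gli1 (-0.65, adjusted p = 0.0851), Gli3 (-0.51, adjusted p = 0.105) and Ihh (-0.09, adjusted p = 0.901) were not called.

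Under P4 the intervals of DOX against PBS ran from -1.21 to 0.44 for Ihh, from -0.73 to 0.42 for Ptch1 and from -0.52 to 0.26 for Gli1, around differences of -0.39, -0.16 and -0.13. Under OIL they ran from -0.93 to 0.80 for Ihh, from -0.53 to 0.62 for Ptch1 and from -0.46 to 0.33 for Gli1, around differences of -0.06, 0.04 and -0.06. The P4 effects on Ihh, 1.48 in the DOX arm and 1.80 in the PBS arm, had intervals of 0.62 to 2.34 and 0.94 to 2.66. The interval of the DOX arm overlapped that of DOX against PBS under OIL. Effects of P4 and of DOX were not tested against each other.

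**Figure D4:**
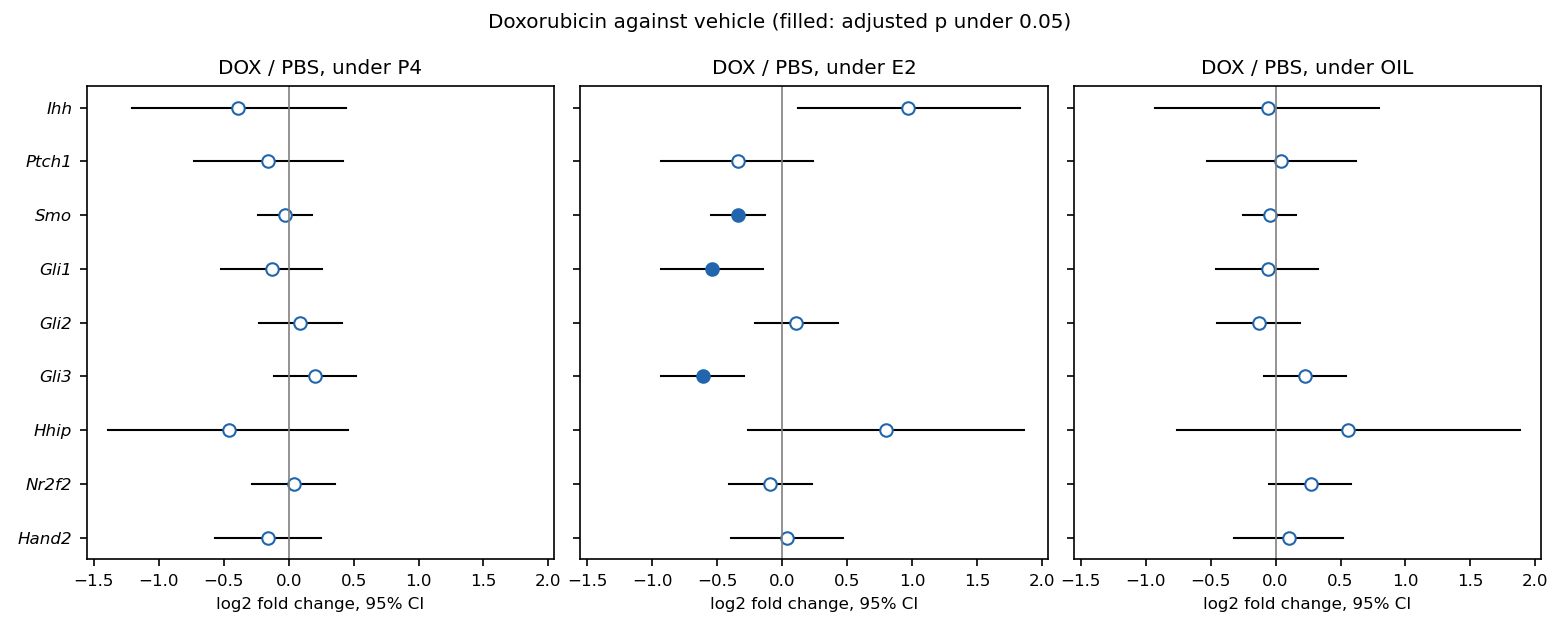
Log2 fold change of each of the 9 genes with DOX against PBS under P4, E2 and OIL, with bars for the 95% confidence interval of the edgeR fit and filled points for an adjusted p under 0.05. Filled points stand only in the E2 panel, at -0.34 for Smo, -0.54 for Gli1 and -0.61 for Gli3.

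The last comparison asked whether the response to a hormone differed between the arms, as the interaction of hormone and DOX. For E2, 1 of 9 members was called, against 22.9% of all tested genes. That member was Gli3, whose response to E2 was -0.52 in the DOX arm and 0.31 in the PBS arm, a difference of -0.84 ± 0.21 (adjusted p = 0.0115). The call held without any 1 of 12 libraries (-1.01 to -0.68) and with the adipocyte covariate (-0.77, adjusted p = 0.0386). Without PBS E2 replicate 1, 3 members were called. Ihh was at 1.04 ± 0.57 (adjusted p = 0.200), Ptch1 at -0.39 ± 0.39 (adjusted p = 0.496) and Gli1 at -0.47 ± 0.26 (adjusted p = 0.199). The Ihh response to E2, called in the DOX arm only, was therefore not shown to differ between the arms. For P4, 0 of 9 members were called, against 0.00645% of all tested genes. In that interaction 525 genes had an unadjusted p under 0.05, none of them a member, DESeq2 called 2 genes and limma voom 1. The P4 response differed between the arms by -0.32 ± 0.56 for Ihh, -0.20 ± 0.38 for Ptch1 and -0.06 ± 0.26 for Gli1.

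Placed in order of group mean, Ihh was highest in PBS P4 (49.0 ± 18.5 CPM) and DOX P4 (37.5 ± 9.05 CPM), followed by DOX E2 (27.8 ± 7.28 CPM), PBS E2 (14.3 ± 7.54 CPM), PBS OIL (14.1 ± 4.41 CPM) and DOX OIL (13.4 ± 6.14 CPM), each SD with n = 3. Every pair of neighbours in that order overlapped in range. Ptch1 fell into 3 tiers that did not overlap, with PBS P4 (409 ± 73.2 CPM) and DOX P4 (367 ± 58.8 CPM) on top, DOX OIL (199 ± 26.6 CPM) and PBS OIL (193 ± 41.0 CPM) between, and PBS E2 (57.7 ± 26.0 CPM) and DOX E2 (45.4 ± 10.5 CPM) below. Hand2 had the same 3 tiers. Nr2f2 had them too, and its DOX OIL libraries also lay above its PBS OIL libraries. Gli2 varied least across groups, with means of 45.8 to 56.6 CPM and overlap between all neighbours.

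The genes most like 2 of the members were sought over the 18 libraries among 12150 genes, as a description of these libraries, whose values share the hormone groups. Those most like Ihh were Cited4, Ptplad1, Dleu7 and Hook1, with Pearson correlations of log2 CPM between 0.908 and 0.919. Cited4 averaged 58.6 ± 2.86 CPM in DOX P4 and 81.6 ± 14.4 CPM in PBS P4, against 27.3 ± 1.41 CPM in DOX OIL and 34.4 ± 8.51 CPM in PBS OIL. Those most like Ptch1 were Tle1, Scn2b, Ndp and Sh3rf2, with correlations between 0.982 and 0.989. Ndp averaged 0.746 ± 0.362 CPM in DOX E2 and 1.44 ± 0.861 CPM in PBS E2, against 16.5 ± 1.39 CPM in DOX OIL and 14.0 ± 3.24 CPM in PBS OIL.

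Other genes of the pathway were taken from lists of 54 symbols by role, of which 51 were in the table and 49 could be tested. With P4, 15 of the 49 were called in the DOX arm (9 higher, 6 lower) and 19 in the PBS arm (12 higher, 7 lower). With E2, 38 were called in the DOX arm (10 higher, 28 lower) and 32 in the PBS arm (12 higher, 20 lower). With DOX against PBS, 21 were called under E2 (2 higher, 19 lower) and 0 under P4 or OIL. These are 30.6%, 38.8%, 77.6%, 65.3% and 42.9% of the list, beside 29.8%, 31.8%, 72.6%, 61.4% and 41.0% of all tested genes.

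Among the other hedgehog ligands, Shh had 1 count over all 18 libraries and could not be tested. Dhh, the desert hedgehog ligand, was low with OIL and rose with E2. It averaged 11.9 ± 3.36 CPM in DOX E2 against 1.51 ± 0.495 CPM in DOX OIL, a rise of 2.97 ± 0.34 (adjusted p = 1.06e-06). It averaged 13.3 ± 2.80 CPM in PBS E2 against 1.66 ± 0.451 CPM in PBS OIL, a rise of 3.0 ± 0.34 (adjusted p = 1.87e-06). Its direction with E2 was thus opposite to that of Ptch1, and it was not called with P4.

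Scube1 and Scube2 belong to a family of secreted proteins, some of which help to release hedgehog ligands. Scube1 rose with E2 to 1678 ± 106 CPM in DOX E2, against 48.5 ± 20 CPM in DOX OIL (5.11 ± 0.43, adjusted p = 2.85e-08), and to 1010 ± 311 CPM in PBS E2, against 68.1 ± 33.2 CPM in PBS OIL (3.89 ± 0.40, adjusted p = 6.91e-07). Scube2 fell with E2 in the DOX arm, to 2.89 ± 1.21 CPM in DOX E2 against 31.1 ± 3.93 CPM in DOX OIL (-3.42 ± 0.38, adjusted p = 8.25e-07), and in the PBS arm, to 12.2 ± 5.32 CPM in PBS E2 against 26.6 ± 11.9 CPM in PBS OIL (-1.14 ± 0.34, adjusted p = 0.00833). The PBS call was lost without PBS OIL replicate 3 (-0.72, adjusted p = 0.0713) and in a fit of only the groups compared (-1.09, adjusted p = 0.0543). Scube2 was lower with DOX than with PBS under E2. It averaged 2.89 ± 1.21 CPM in DOX E2, against 12.2 ± 5.32 CPM in PBS E2, a log2 fold change of -2.05 ± 0.38 (adjusted p = 0.000728). Its response to E2 differed between the arms by -2.28 ± 0.50 (adjusted p = 0.00577). With P4, Scube1 rose by 1.67 ± 0.37 in the DOX arm and by 1.47 ± 0.37 in the PBS arm, both called. Scube2 was called higher with P4 in both arms, opposite to E2, at 71.2 ± 16.4 CPM in DOX P4 and 55.3 ± 8.33 CPM in PBS P4. The DOX call of Scube2 with P4 was lost without DOX P4 replicate 2. Its PBS call was lost without any of 4 of the 6 libraries and with the adipocyte covariate (0.89). Scube3, of the same family, was called lower with P4, at -1.12 ± 0.33 in the DOX arm and -1.41 ± 0.33 in the PBS arm. The DOX call of Scube3 was lost without any of 3 of the 6 libraries. Hhat, the acyltransferase that attaches palmitate to the ligand, averaged 1.97 ± 0.278 CPM in DOX E2 against 3.82 ± 0.589 CPM in PBS E2, and fell by 0.94 ± 0.18 (adjusted p = 0.000707).

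Among the co-receptors, Lrp2, a large endocytic receptor that binds hedgehog ligands, rose with P4 in both arms. It averaged 313 ± 12.6 CPM in DOX P4, against 22.8 ± 23.6 CPM in DOX OIL, and 360.4 ± 68.0 CPM in PBS P4, against 9.85 ± 6.16 CPM in PBS OIL. The rises were 3.79 ± 0.63 (adjusted p = 0.000598) in the DOX arm and 5.20 ± 0.68 (adjusted p = 0.000110) in the PBS arm. Without DOX OIL replicate 3 the rise of Lrp2 with P4 in the DOX arm was 5.09, and without any other 1 library it was 3.35 to 3.82. Lrp2 was called higher with E2 as well. It averaged 43.9 ± 20.8 CPM in PBS E2, a rise of 2.16 ± 0.62 over PBS OIL (adjusted p = 0.00662). It averaged 75.6 ± 10.7 CPM in DOX E2, where the call against DOX OIL was lost without DOX OIL replicate 1 or 2. Boc, a ligand-binding co-receptor, averaged 19.2 ± 1.86 CPM in DOX E2, against 34.8 ± 1.64 CPM in PBS E2, a log2 fold change of -0.86 ± 0.10 (adjusted p = 1.87e-05).

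Of the 12 genes of the cilium and of the relay from Smo to the Gli proteins, most fell with E2. In the DOX arm 10 of 12 fell and 0 rose, where 72.6% of all tested genes were called and 37.5% fell. The PBS arm had 8 of 12 lower and 0 higher, where 61.4% of all tested genes were called and 31.9% fell. The list medians were -0.91 and -0.46, beside -0.08 and -0.09 over all tested genes. Tulp3, a carrier of membrane proteins into the cilium, was not called in either arm, at -0.10 and -0.01. Evc, a protein at the base of the cilium that binds Smo, averaged 14.2 ± 0.579 CPM in DOX E2, against 90.3 ± 3.70 CPM in DOX OIL (-2.67 ± 0.12, adjusted p = 2.45e-10). It averaged 42.3 ± 8.28 CPM in PBS E2, against 86.7 ± 2.45 CPM in PBS OIL (-1.04 ± 0.11, adjusted p = 9.04e-07). Under E2, 7 of 12 were lower with DOX than with PBS and 0 higher, where 41.0% of all tested genes were called and 20.6% were lower. Evc changed there by -1.57 ± 0.11 (adjusted p = 1.03e-06), Iqce, a partner of Evc in the cilium, by -1.19 ± 0.18 (adjusted p = 0.000141), and Kif3a, a motor subunit needed to build cilia, by -0.64 ± 0.08 (adjusted p = 5.09e-05). Markers of ciliated and oviduct cells, 4 of 5 in the table, summed to 9.40 to 10.3 CPM in DOX E2 against 11.0 to 20.6 CPM in PBS E2. In the OIL groups they summed to 31.4 to 37.0 CPM in DOX OIL against 27.5 to 43.8 CPM in PBS OIL. Their part in the result was not tested. Sufu, which holds Gli proteins in the cytoplasm, rose with P4 by 0.31 ± 0.08 in the DOX arm and by 0.38 ± 0.08 in the PBS arm.

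Of the kinases and degradation factors that process Gli proteins, Csnk1a1 rose with E2 by 1.78 ± 0.13 in the DOX arm and by 1.41 ± 0.12 in the PBS arm, and under E2 it was higher with DOX than with PBS by 0.53 ± 0.12 (adjusted p = 0.00314). Spop, an adaptor that targets Gli2 and Gli3 for degradation, fell with P4 by 0.30 ± 0.06 in the DOX arm and by 0.29 ± 0.06 in the PBS arm. Of 4 tested genes that answer to hedgehog signals in other tissues, 0 were called higher with P4 in either arm and 3 were called lower in each, where 14.7% of all tested genes were higher and 15.1% lower in the DOX arm, and 16.2% higher and 15.6% lower in the PBS arm. Mycn and Bcl2 were called in both arms. The third was the cyclin Ccnd2 in the DOX arm (-0.41, lost without any of 5 of the 6 libraries) and the cyclin Ccnd1 in the PBS arm (-0.84, or -0.44 without PBS OIL replicate 1, and lost without any of 4 of the 6). Mycn, a growth-promoting transcription factor, averaged 1.40 ± 0.159 CPM in DOX P4, against 11.0 ± 4.52 CPM in DOX OIL, a log2 fold change of -2.98 ± 0.49 (adjusted p = 0.000507). It averaged 1.82 ± 0.597 CPM in PBS P4, against 10.9 ± 8.81 CPM in PBS OIL, a log2 fold change of -2.58 ± 0.48 (adjusted p = 0.00115), or -1.69 without PBS OIL replicate 1. In the DOX arm only 1 of these 4 was called lower without DOX P4 replicate 2.

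**Figure D5:**
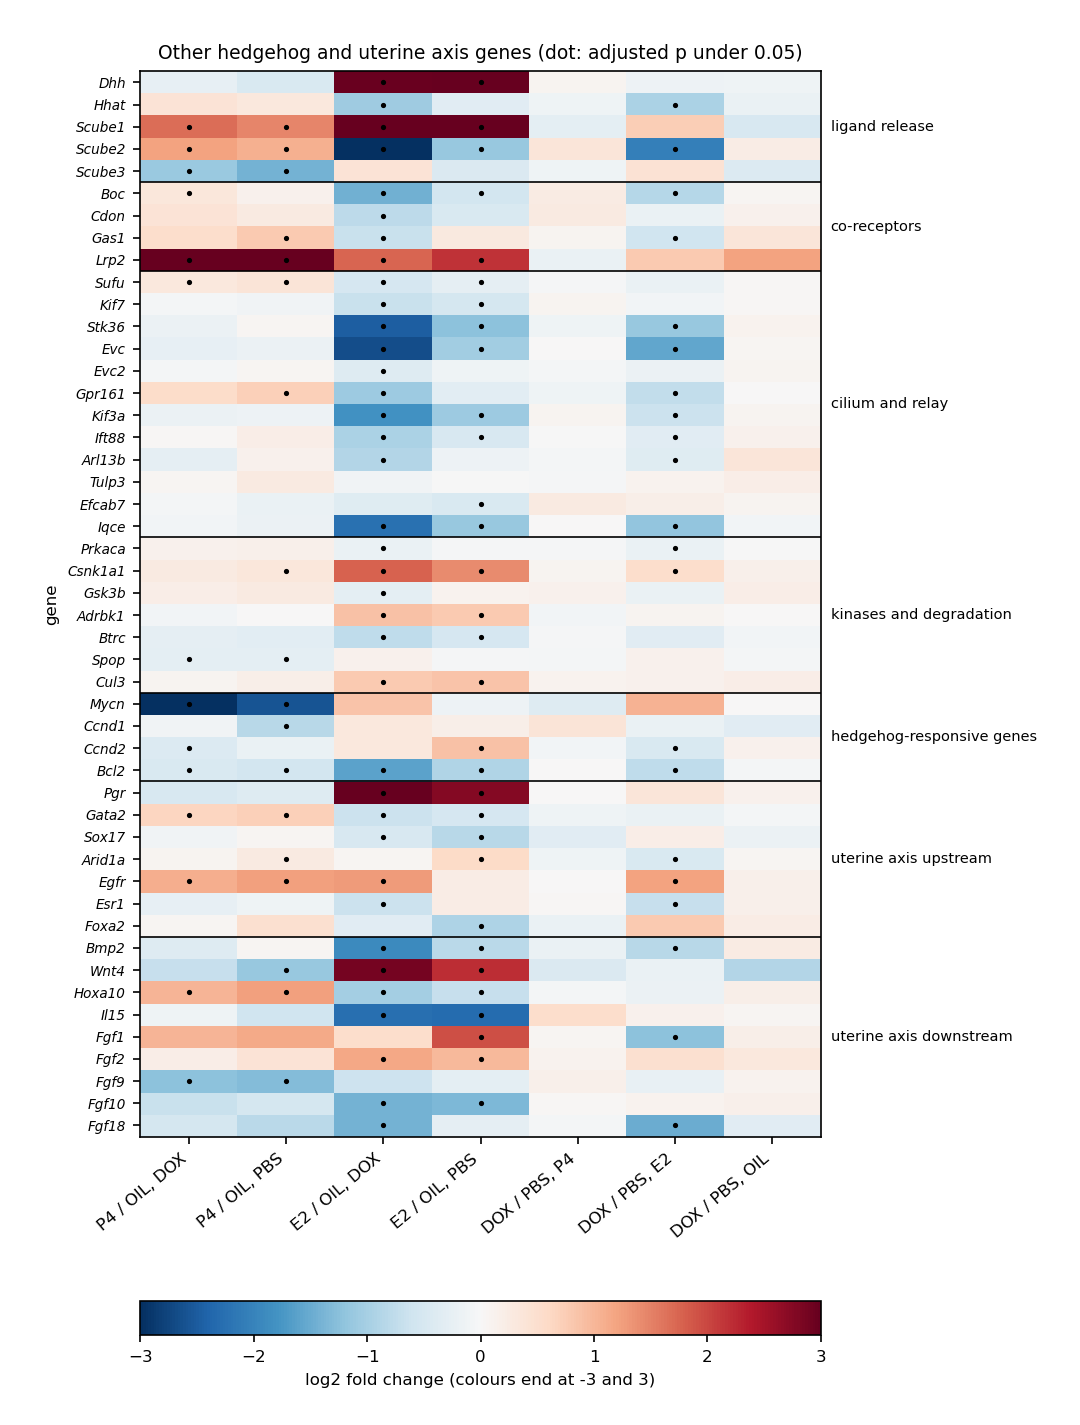
Log2 fold change of other genes of the hedgehog pathway and of the uterine axis around it, 1 row per gene and 1 column per comparison, with red for higher, blue for lower (colours end at -3 and 3) and a dot for an adjusted p under 0.05. Lrp2 is high in both P4 columns, at 3.79 and 5.20, and Evc is low in both E2 columns, at -2.67 and -1.04.

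Of genes upstream in the uterine axis, Gata2 and Egfr rose with P4, Egfr by 1.09 ± 0.18 in the DOX arm and by 1.24 ± 0.18 in the PBS arm. Of the 7 tested genes of this list, 2 were called with P4 in the DOX arm and 3 in the PBS arm, all higher. Of all tested genes 29.8% and 31.8% were called there, 14.7% and 16.2% higher. Gata2, a transcription factor that acts with the progesterone receptor upstream of Ihh, rose by 0.65 ± 0.15 in the DOX arm (adjusted p = 0.00391) and by 0.71 ± 0.15 in the PBS arm (adjusted p = 0.00233). With E2 it fell by 0.64 ± 0.15 in the DOX arm (adjusted p = 0.00101) and by 0.50 ± 0.15 in the PBS arm (adjusted p = 0.00757), where a fit of only the groups compared did not call it. Pgr, the progesterone receptor, rose with E2 to 441 ± 42.4 CPM in DOX E2, against 55.1 ± 9.60 CPM in DOX OIL, and to 344 ± 71.2 CPM in PBS E2, against 50.8 ± 14.7 CPM in PBS OIL. These are rises of 3.0 ± 0.21 and 2.76 ± 0.21. Egfr, the epidermal growth factor receptor, averaged 115 ± 14.0 CPM in DOX E2, against 50.0 ± 12 CPM in PBS E2, a rise of 1.2 ± 0.18 (adjusted p = 0.000132), and its E2 response differed between the arms by 1.04 ± 0.25 (adjusted p = 0.00940). Esr1, the main estrogen receptor, averaged 427 ± 68.4 CPM in DOX E2, against 695 ± 164 CPM in PBS E2, a log2 fold change of -0.70 ± 0.15 (adjusted p = 0.00197).

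Of genes downstream of the stromal signal, Hoxa10, a homeobox factor needed for the stroma to respond to progesterone, rose with P4 by 1.01 ± 0.24 in the DOX arm (adjusted p = 0.00537) and by 1.24 ± 0.24 in the PBS arm (adjusted p = 0.00153). Wnt4, a secreted signal of the decidualizing stroma, rose with E2 to 160.1 ± 9.08 CPM in DOX E2, against 21.7 ± 7.63 CPM in DOX OIL, and to 185 ± 40.4 CPM in PBS E2, against 40.1 ± 9.53 CPM in PBS OIL. With P4, Wnt4 fell in the PBS arm by 1.13 ± 0.32 (adjusted p = 0.0152), a call lost without PBS OIL replicate 1 (-0.92) or PBS P4 replicate 1 (-0.81). Bmp2, a growth factor induced in the stroma at implantation, fell with E2 to 4.64 ± 1.25 CPM in DOX E2, against 17.3 ± 5.80 CPM in DOX OIL (-1.90 ± 0.28, adjusted p = 1.47e-05), and to 8.32 ± 1.93 CPM in PBS E2, against 14.6 ± 3.05 CPM in PBS OIL (-0.82 ± 0.27, adjusted p = 0.0146). The PBS call of Bmp2 was lost without PBS OIL replicate 3 (-0.64) or PBS E2 replicate 1 (-0.63). Il15, a cytokine of the stroma that supports uterine natural killer cells, fell with E2, with log2 fold changes of -2.26 ± 0.34 in the DOX arm and -2.32 ± 0.34 in the PBS arm, at levels of 1.11 ± 0.620 CPM in DOX E2 against 5.36 ± 1.58 CPM in DOX OIL and 1.04 ± 0.276 CPM in PBS E2 against 5.13 ± 0.168 CPM in PBS OIL. Fgf9, one of the growth factors of the stroma, fell with P4 in the DOX arm by 1.24 ± 0.30 (adjusted p = 0.00598). In the PBS arm it fell by 1.3 ± 0.30 (adjusted p = 0.00474), and was not called there with the adipocyte covariate (-0.93, adjusted p = 0.0717). Fgf1, Fgf2, Fgf10 and Fgf18 were not called with P4 in either arm. Of these, Fgf1 averaged 56 ± 17.3 CPM in DOX P4 against 27.7 ± 9.05 CPM in DOX OIL. With P4, 7 of the 9 genes of this list were not called in the DOX arm and 6 in the PBS arm, where 29.8% and 31.8% of all tested genes were called.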

How the data were processed

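The deposited table holds raw counts per gene symbol, which the authors made with HISAT2 2.1.0 and StringTie 1.3.4d among the tools named, on build GRCm38, per the submitters' processing notes (also Trimmomatic 0.36, FastQC 0.11.5, SAMtools 1.6, DESeq2 1.18.1 and R 3.4.4). Per the labels' protocols, library preparation used TruSeq reagents for total RNA. Here filterByExpr of edgeR 4.0.16 kept 15494 genes, TMM factors scaled the libraries, and a robust quasi-likelihood model of the 6 groups (12 residual degrees of freedom) was tested for 9 contrasts, with Benjamini-Hochberg adjustment within each. Each SE was taken from the fold change and its F statistic. CPM are counts over TMM library sizes. Members and lists were chosen with earlier results of these data known. All members are named, and up to 3 called genes of each list with the smallest p per comparison. Alternatives used DESeq2 1.42.0, limma 3.58.1, other filters, covariates and left-out libraries, in R 4.3.3. The test was checked on simulated data. Replicates were not copies of each other. Of the 21 pairs of same-numbered libraries 8 deviated together with a correlation over 0.1, and in 0 of 7 comparisons did all pairs, so replicate numbers were not taken as pairs. A gene of the lists enters the counts and is not reported here by itself.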

Additional observations from a re-analysis of the deposited data

Results flagged for a closer look

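The response of Gli3 to E2 differed between the DOX and PBS arms by a test of the difference itself, with an interaction of -0.84 ± 0.21 on the log2 scale (edgeR's quasi-likelihood test, adjusted p = 0.0115). Gli3 was the only 1 of 9 members called in that interaction, where 22.9% of all tested genes were called. Gli3 averaged 25.1 ± 4.04 CPM in DOX E2 against 36.1 ± 1.12 CPM in DOX OIL, and 38.4 ± 4.86 CPM in PBS E2 against 30.9 ± 7.59 CPM in PBS OIL (SD, n = 3 each). All 3 DOX E2 libraries lay below the 3 DOX OIL libraries, and the PBS E2 and PBS OIL ranges overlapped.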

How the results depend on the processing

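Some results kept their direction and their call under each alternative run, including each left-out library. These were Ptch1, Nr2f2 and Hand2 with E2 in both arms, Gli1 with P4 in both arms and the Gli3 interaction. Hhip with P4 kept them in both arms too. It passed the filter through the groups in which it was higher, so its calls are only described. With the adipocyte covariate 3 members were called for P4 in the PBS arm, and with only the groups compared 1 for DOX under E2. Leaving out 1 library gave 2 to 5 members for P4 in the DOX arm, 1 to 4 for DOX under E2 and 1 to 3 for the E2 interaction. Over all tested genes the same fits gave 3057 to 3896, 4684 to 6822 and 2427 to 4898 calls. With the replicate number as a block, 7 members were called for P4 in each arm, 7 and 4 for E2 in the DOX and PBS arms, and 3 for DOX under E2. The block ended the calls of Smo with P4 (adjusted p = 0.0539) and Hhip with E2 (adjusted p = 0.0566), both in the PBS arm, and it gave calls to Gli3, with P4 in the DOX arm (0.36, adjusted p = 0.0270) and with P4 (0.40, adjusted p = 0.0156) and E2 (0.33, adjusted p = 0.0207) in the PBS arm.

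Signs turned as follows, and the cause was not tested. Ihh with E2 in the PBS arm was -0.19 with voom, 0 with no filter or a stricter filter, -0.10 with the adipocyte covariate, -0.01 in the blocked fit and -0.47 to 0.33 without 1 library. The adipocyte covariate also gave -0.18 for Ptch1 with DOX under OIL, -0.09 for Ihh (otherwise 0.97) and 0.11 for Fgf1 (otherwise -1.24, called) with DOX under E2, where Gli2 was -0.28 and Hand2 -0.42, -0.17 for Gli2 with P4 in the PBS arm and -0.12 with E2 in the DOX arm, and 0.10 for Ihh and 0.05 for Ptch1 in the P4 interaction. Without 1 library, Gli1 with E2 in the DOX arm was -0.17 to 0.11, and with DOX under OIL Ihh was -0.51 to 0.13, Ptch1 -0.12 to 0.18 and Gli1 -0.22 to 0.03. With E2 in the PBS arm Smo was -0.05 to 0.17 and Gli2 -0.16 to 0.11. Ptch1 with DOX under E2 was -0.63 to 0.04, Gli2 -0.07 to 0.21, Nr2f2 -0.29 to 0.07 and Hand2 -0.21 to 0.21 (0 with only the groups compared), and in the P4 interaction Ihh was -0.51 to 0.12 and Gli1 -0.17 to 0.09.

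Over all genes, P4 in the PBS arm gave 4930 calls, against 3013 with the adipocyte covariate and 3146 without PBS P4 replicate 3. P4 in the DOX arm gave 4618, against 3057 without DOX P4 replicate 3. DOX under E2 gave 6358, against 3410 with the covariate. DOX under OIL gave 2, against 21 with DESeq2 and 0 with voom, and DOX under P4 gave 0, against 9 with DESeq2. Hhip is the member whose depth limits it most, with 4 to 10 counts in the OIL libraries.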
